A study of Oryza sativa with 36 samples.

Results

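The genes described here are 84 of the 55986 listed rice genes (0.15%). They were nearly silent in leaves of Callus and Seedling plants and were on in at least 2 of 6 other groups. A gene was chosen when its mean FPKM (fragments scaled by transcript length and by library depth, a level comparable between genes) was below 0.1 in both Callus and Seedling. It also had to reach an FPKM of at least 1 in both libraries of 2 or more of AMT+Ab, AMT+Hb, AgBi, AgTi, Ag and Callus+AM, called the 6 groups below. These values chose the genes, so the gap between the 6 groups and the Callus and Seedling plants is a description and carries no test.

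The RNA came from leaves of TNG67, a japonica rice, taken from greenhouse plants at the tillering stage and described in the protocols as transgenic rice. The groups were AMT+Ab, AMT+Hb, AgBi, AgTi, Ag, Callus+AM, PB, Callus and Seedling, each with 2 biological replicates, 18 libraries in all. The protocols name plants grown from seed and plants regenerated from treated calli; that Seedling is the seed-grown group and the others are regenerants is a reading of the group names, and "Callus" here is leaf too. No source used here says what the group codes stand for, which transgene or agent each group received, or whether the replicates of a group came from separate calli. If they did not, p-values measure only the spread between these libraries. Extraction used either of 2 RNA methods, and which library had which is not given.

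Rice transformation usually passes through callus, an unorganised tissue from which whole plants are regenerated. Plants regenerated from culture can differ from seed-grown plants in DNA methylation and in which genes are active, a phenomenon called somaclonal variation. Regenerants of the same treatment are separate plants and can carry different changes. A gene that is silent in a leaf can be held off by DNA methylation and chromatin, or can lack the signal or developmental stage that turns it on. RNA levels alone do not tell these apart.

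None of the 84 identifiers could be paired with a gene name, because the files pair none and the RefSeq gene table matched 0 of the members and 1 of all listed genes. Genes are therefore given by identifier, with no function. The chromosome was read from the identifier. For the same reason, marker genes of leaf and of other tissues could not be checked, and the labelled tissue is taken from the labels. The RNA comes from whole leaf samples, in which a gene that is on in fewer cells cannot be told apart from one that makes less RNA per cell.

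The 14 libraries of the 6 groups and PB held 26609812 to 33222427 counts. Those of Callus and Seedling held 41582054 to 52643973. The Callus and Seedling libraries are thus also the more deeply sequenced ones, and the labels name no sequencing set. Group and depth, or any sequencing set behind the depth, cannot be told apart for the silence of the members. Whether depth or a sequencing set bears on that silence was not tested. In total the 84 members held between 539 and 62562 counts in each of the 14 libraries, against 82 to 258 in each of the 4 Callus and Seedling libraries. Of the members, 13 had 0 counts in all 4 of these libraries. The median member had 5 counts summed over the 4, and the highest sum was 27.

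Not every library outside Callus and Seedling had the genes on. Within 3 of the 6 groups the replicates differed widely, as the plot of members by library shows. The 3 libraries Ag replicate 2, AgTi replicate 1 and Callus+AM replicate 1 are called the 3 low libraries below. Ag replicate 1 had 70 of the 84 members at an FPKM of at least 1, and Ag replicate 2 had 5. AgTi replicate 2 had 34 and AgTi replicate 1 had 9. Callus+AM replicate 2 had 71 and Callus+AM replicate 1 had 33. Of the other groups, AgBi had 52 and 54, AMT+Ab 80 and 78, AMT+Hb 79 and 71, and PB 70 and 52. The description of the genes as on outside Callus and Seedling thus holds for most members in AMT+Ab, AMT+Hb, AgBi, PB, Ag replicate 1 and Callus+AM replicate 2. The data go against it in the 3 low libraries and in AgTi replicate 2.

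**Figure D1:**
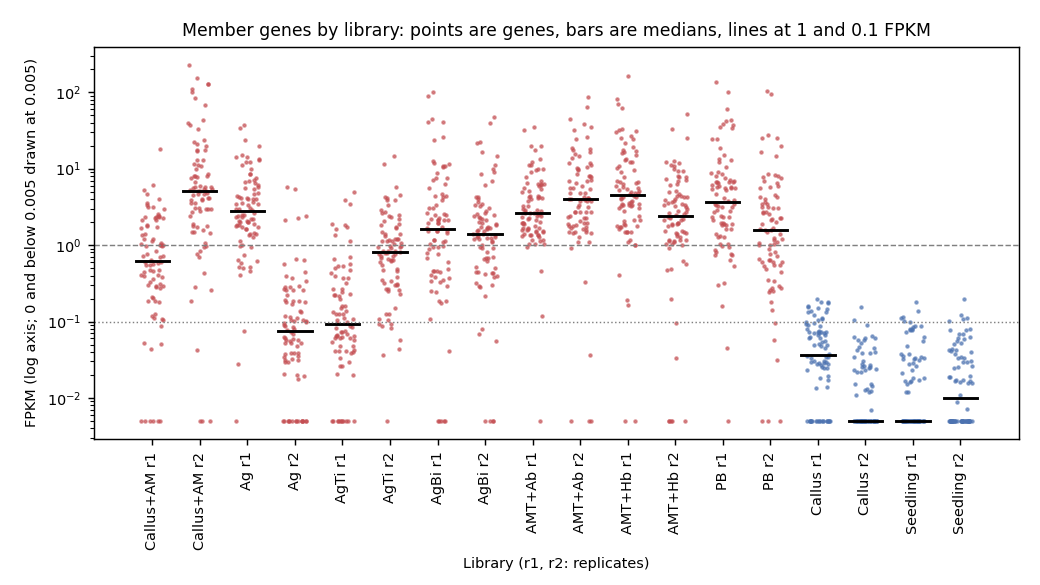
FPKM (log axis) of the 84 members in each of 18 libraries, with r1 and r2 for replicates; points are genes, black bars are medians, and grey lines mark 1 and 0.1 FPKM. Medians of Ag r2 (0.0751) and AgTi r1 (0.0915) lie below 0.1, and that of Callus+AM r2 (5.04) is the highest of the 18.

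The median member FPKM was 5.04 in Callus+AM replicate 2 and 0.62 in replicate 1. In Ag it was 2.76 in replicate 1 and 0.0751 in replicate 2, and in AgTi 0.0915 in replicate 1 and 0.82 in replicate 2. It was 1.602 and 1.39 in the AgBi libraries, 2.62 and 3.99 in AMT+Ab, 4.52 and 2.42 in AMT+Hb and 3.65 and 1.59 in PB. In Callus it was 0.0362 and 0, and in Seedling 0 and 0.01001. Ag replicate 2 and AgTi replicate 1 thus sat between the Callus and Seedling libraries and the rest. Of the 84 members, 49 were below 0.1 in Ag replicate 2 and 44 in AgTi replicate 1, against 69 and 82 in the Callus libraries and 79 in each Seedling library. Their total counts, 30740453 in Ag replicate 2 and 31800597 in AgTi replicate 1, lay inside the range of the 14 libraries.

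The gap between replicates is set here beside that of all genes, as a description. Of the 70 members on in Ag replicate 1, 62 (88.6%) were more than 10-fold lower in replicate 2. Across all 20288 genes at 1 or more in Ag replicate 1 this was 2.36%. In AgTi, 15 of the 34 members on in replicate 2 (44.1%) were more than 10-fold lower in replicate 1, against 0.583% of all genes. In Callus+AM, 33 of the 71 members on in replicate 2 (46.5%) were more than 10-fold lower in replicate 1, against 4.99% of all genes. The opposite gap was met by 2 of 33 members in Callus+AM and by 0 of 5 in Ag and 0 of 9 in AgTi. In AgBi and AMT+Ab at most 2 members were more than 10-fold apart in either direction, and in AMT+Hb and PB at most 9 and 12. In AMT+Hb, 9 of 79 members (11.4%) were so much lower in replicate 2, against 0.832% of all genes, and 0 of 71 in replicate 1. In PB these were 12 of 70 (17.1%, against 1.04%) and 2 of 52 (3.85%, against 3.02%). In AgBi they were 0 of 52 and 2 of 54 (3.70%, against 1.39%), and in AMT+Ab 2 of 80 and 2 of 78 (2.56%, against 0.657%). The rule needs both libraries on, which favours small gaps in the groups through which a gene was chosen. It also takes genes that are near 0 in some libraries and on in others, which can favour large gaps elsewhere. All genes were not chosen this way and are not a like baseline for the members. The shares describe 2 libraries a group, and their cause was not tested.

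**Figure D2:**
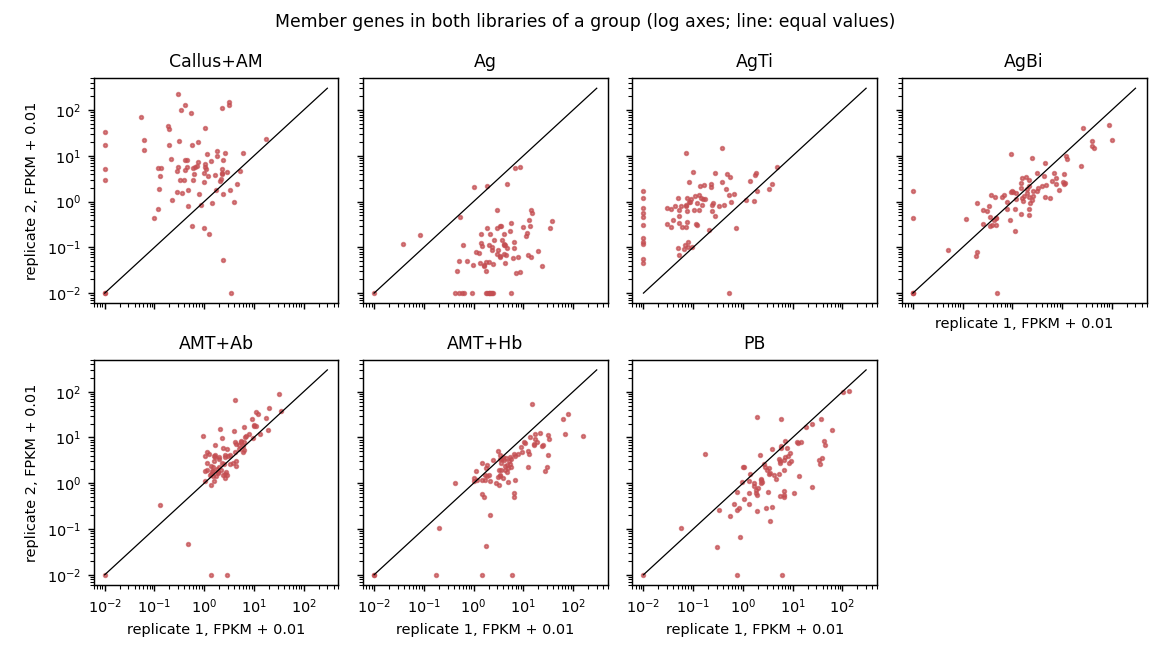
FPKM + 0.01 of each member in replicate 1 (horizontal) and replicate 2 (vertical) of 7 groups, on log axes, with a line of equal values. Nearly all points lie below the line in Ag and above it in AgTi, while those of AgBi scatter along it.

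The ranking of the members also differed between libraries of the same group. Across the 84 members, Spearman's rho between the replicates was -0.06 in Callus+AM, 0.38 in Ag and 0.56 in AgTi. It was 0.81 in AgBi, 0.74 in AMT+Ab, 0.76 in AMT+Hb and 0.66 in PB. The closest pair of all was Callus+AM replicate 2 with AgBi replicate 1 (rho = 0.83), libraries of different groups. Members are not independent points, low values carry counting noise, and all pairs share the same gene choice, so these correlations are descriptions.

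**Figure D3:**
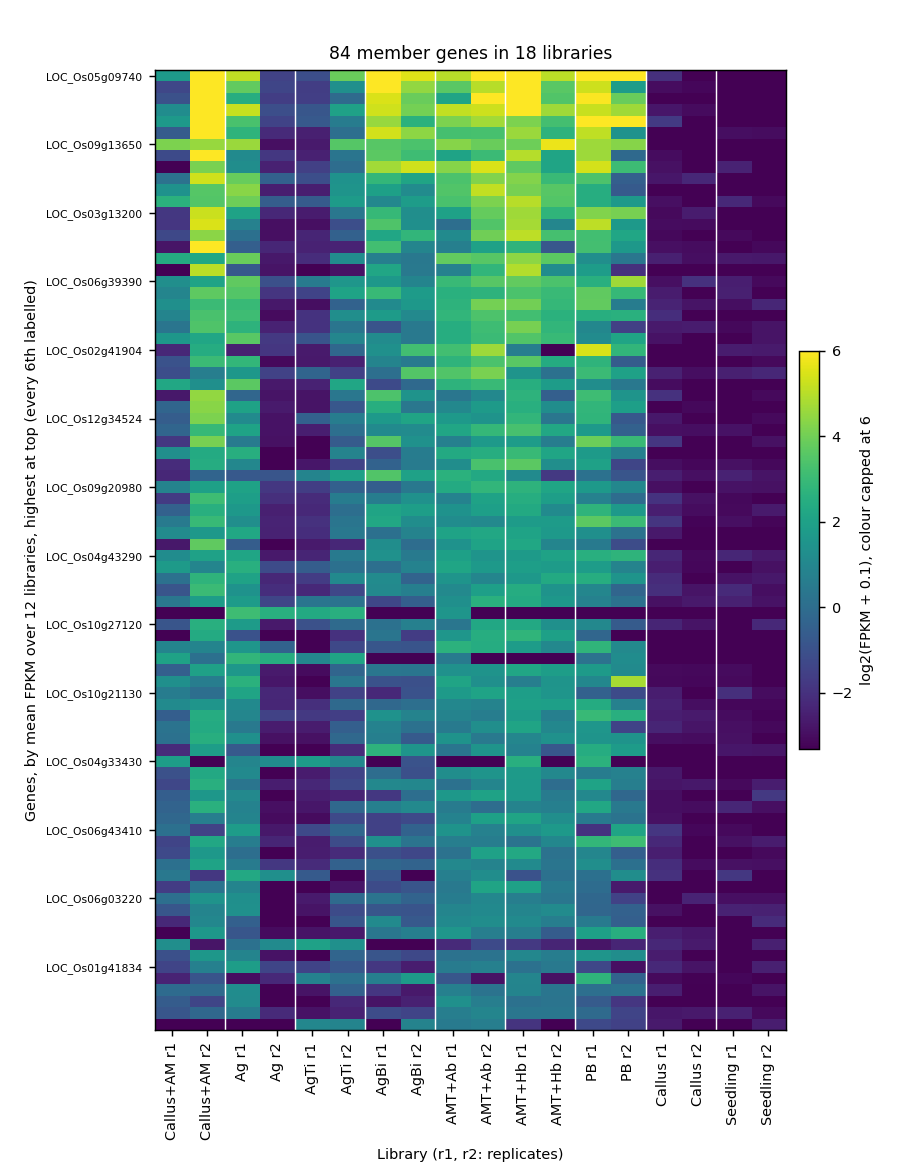
Level of the 84 members, as log2(FPKM + 0.1) in colour, by library (columns, grouped by white lines) and gene (rows, highest mean at the top). Columns of Ag r2 and AgTi r1 are dark in most rows, as are those of Callus and Seedling, and a few rows are bright in Ag and AgTi but dark in AgBi.

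Levels among the members ranged widely. The mean FPKM over the 12 libraries of the 6 groups ran from 0.692 to 45.9 with a median of 2.50, and 10 members averaged at least 10. The 5 highest members held 37.3% of the summed FPKM of all 84. Callus+AM replicate 2 was the highest of the 12 libraries for 34 members, AMT+Hb replicate 1 for 16, and AMT+Ab replicate 2 and Ag replicate 1 for 13 each.

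LOC_Os05g09740 on chromosome 5 had the highest mean. Its FPKM was 3.12 and 129.1 in Callus+AM, 34.0 and 0.255 in Ag, 0.376 and 14.6 in AgTi, 88.9 and 47.0 in AgBi, 32.02 and 87.7 in AMT+Ab, 80.4 and 32.9 in AMT+Hb and 102.3 and 96.2 in PB, against 0.147 and 0 in Callus and 0 and 0 in Seedling. Ag replicate 2 and AgTi replicate 1 were the only ones of the 14 libraries under 1, and Ag replicate 2 was within 2-fold of Callus replicate 1.

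LOC_Os03g45619 on chromosome 3 ranged more. Its FPKM was 0.293 and 230.0 in Callus+AM, 13.5 and 0.288 in Ag, 0.220 and 2.38 in AgTi, 101.2 and 22.5 in AgBi, 12.3 and 31.9 in AMT+Ab, 70.4 and 12.2 in AMT+Hb and 38.6 and 3.47 in PB, against 0.0249 and 0.0108 in Callus and 0 in both Seedling libraries. The value in Callus+AM replicate 2 was the highest of any member in any library. Its own replicate was at a level like that of Ag replicate 2 and AgTi replicate 1.

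LOC_Os06g21270 on chromosome 6 had 0 in all 4 Callus and Seedling libraries. Its FPKM was 0.396 and 127.3 in Callus+AM, 5.45 and 0.223 in Ag, 0.228 and 0.825 in AgTi, 44.6 and 14.7 in AgBi, 4.23 and 64.7 in AMT+Ab, 162.3 and 10.9 in AMT+Hb and 60.9 and 14.5 in PB. Replicates differed by more than 10-fold in Callus+AM, Ag, AMT+Ab and AMT+Hb for this gene, so its spread was not limited to the 3 low libraries.

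LOC_Os02g33550 on chromosome 2 was steadier outside those libraries. Its FPKM was 2.23 and 109.3 in Callus+AM, 37.1 and 0.372 in Ag, 0.467 and 3.91 in AgTi, 40.5 and 16.7 in AgBi, 35.1 and 38.6 in AMT+Ab, 63.1 and 25.5 in AMT+Hb and 37.5 and 25.5 in PB, against 0.0495 and 0.0216 in Callus and 0 in both Seedling libraries. Apart from Callus+AM replicate 1, Ag replicate 2 and both AgTi libraries, the 10 other libraries were all at 16.7 or more.

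LOC_Os04g39150 on chromosome 4 was among the members nearest the silence threshold, at a Callus mean of 0.0986. Its FPKM was 3.16 and 153.0 in Callus+AM, 9.96 and 0.266 in Ag, 0.503 and 1.40 in AgTi, 23.7 and 6.11 in AgBi, 17.7 and 26.2 in AMT+Ab, 17.6 and 9.23 in AMT+Hb and 135.9 and 103.0 in PB, against 0.197 and 0 in Callus and 0 in both Seedling libraries. Its PB levels exceeded those of all other libraries but Callus+AM replicate 2.

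The groups in which members were on fell into a few combinations. Of the 84, 35 were on in 2 of the 6 groups, 32 in 3, 16 in 4, 1 in 5 and 0 in all 6. AMT+Ab and AMT+Hb took part in most, with 68 members on in both and 5 in neither. The most frequent sets were AMT+Ab and AMT+Hb alone (20 members), these with AgBi (20), with AgBi and Callus+AM (15) and with Callus+AM (11). The member on in 5 groups was LOC_Os06g39390 on chromosome 6, which missed Ag through replicate 2 (FPKM 0.39, against 13.0 in replicate 1). It was named after its value was seen.

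The rule counts a group only where both libraries have the gene on. On the higher library alone, 70 members would be on in Ag (replicate 1), 71 in Callus+AM (replicate 2) and 34 in AgTi (replicate 2), compared with 5, 28 and 9 by the rule. With the 3 low libraries left out together, a choice made after seeing the data, the rule took 171 genes. Leaving out Callus+AM replicate 1 alone gave 139 genes.

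A small set was arranged differently. In all, 10 members were on in both libraries of Ag or of AgTi, and 4 were on in Ag and AgTi and in no other of the 6 groups. LOC_Os03g38600 on chromosome 3 had the most counts of the 4, 316 over the 12 libraries. Its FPKM was 2.33 and 0.0427 in Callus+AM, 1.01 and 2.11 in Ag, 3.91 and 2.47 in AgTi, 0 and 0 in AgBi, 0.117 and 0.326 in AMT+Ab, 0.19 and 0.0955 in AMT+Hb and 0.0456 and 0.0967 in PB, against 0.104 and 0.0602 in Callus and 0 and 0.0783 in Seedling. The 3 low libraries were among the 5 with this gene on.

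The other 3 of this set rested on few reads. LOC_Os06g03650 on chromosome 6 had 14 and 12 counts in Ag, 10 and 13 in AgTi and 4 in AMT+Ab replicate 1, with 0 in every other library. Its FPKM of 8.54 in Ag replicate 1 corresponds to 14 counts. Its implied length, the ratio of counts to FPKM over libraries with at least 1 count, was 0.0354 of that of the median gene. LOC_Os09g19780 on chromosome 9 had 26 counts over the 12 libraries and LOC_Os04g33430 on chromosome 4 had 115. In all, 5 of the 84 members had fewer than 100 counts over the 12 libraries.

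PB was not used to choose the genes. Of the 84 members, 49 (58.3%) reached an FPKM of at least 1 in both PB libraries, 24 in 1 library and 11 in neither, and 2 had a PB mean below 0.1. Of the 28007 genes silent in Callus and Seedling that are not members, 0.928% were on in both PB libraries. These are the silent genes that were not on in 2 or more of the 6 groups, so the choice itself keeps this share low. In the 6 groups it ran from 0.00714% in Callus+AM to 0.111% in AMT+Hb. A silent gene that is not a member is on in at most 1 of the 6 groups, so the rule limits those shares directly. The rule does not use PB, so the PB share is not comparable with them. Of the 28091 silent genes, 13431 had 0 counts in all 18 libraries. Over all listed genes, 35.3% were on in PB. The share counted on PB replicate 1 alone was 83.3% (70 members) and on replicate 2 alone 61.9% (52 members). Choosing the genes without Callus replicate 1 gave 123 genes with 74 on in PB, and without Callus+AM replicate 1 it gave 139 with 84 on in PB.

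The same measure for the 6 groups, with each left out of its own choice, put PB in the middle of the range. Of genes chosen from the other 5 groups, 87.5% (49 of 56) were on in AMT+Ab, 77.4% (48 of 62) in AMT+Hb, 49.3% (37 of 75) in AgBi, 33.3% (28 of 84) in Callus+AM, 3.85% (3 of 78) in AgTi and 0% (0 of 79) in Ag. In Ag replicate 1 alone, 70 of the 84 members were on. These shares use overlapping gene choices and the same Callus and Seedling libraries, so they are given side by side with no test.

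**Figure D4:**
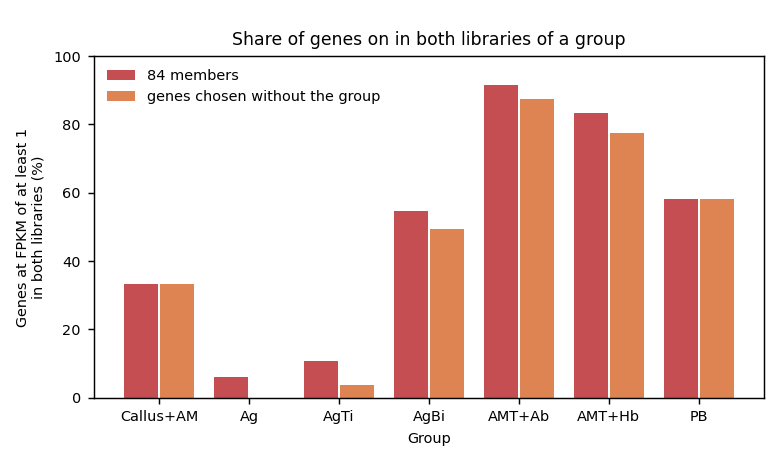
Share (%) of the 84 members, and of genes chosen with the named group left out of the rule, at an FPKM of at least 1 in both libraries of each group. For PB both bars are 58.3% because the rule does not use PB. Ag stands at 6% of the members and 0% of the genes chosen without it.

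The members with the highest PB means were LOC_Os04g39150 at 119.5 ± 23.2 FPKM (SD, n = 2), LOC_Os05g09740 at 99.3 ± 4.26, LOC_Os06g21270 at 37.7 ± 32.8, LOC_Os02g33550 at 31.5 ± 8.42 and LOC_Os02g33380 on chromosome 2 at 25.4 ± 24.1. The means of the last 3 do not differ beyond the spread between the 2 libraries. LOC_Os02g33380 had an FPKM of 42.4 and 8.37 in PB, with 0.0342 and 0 in Callus and 0.0838 and 0 in Seedling. Elsewhere it was at 0 and 17.4 in Callus+AM, 2.30 and 0.0789 in Ag, 0.242 and 0.912 in AgTi, 26.0 and 39.6 in AgBi, 19.7 and 44.4 in AMT+Ab and 12.8 and 4.30 in AMT+Hb. Over the 83 members in the count model, the median log2 fold change of PB over Seedling was 6.96, beside 0.05 for all genes tested. The choice of genes low in Seedling fixes that direction, so it is not a test.

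Members on in PB were also on in several of the 6 groups. Of the 49 on in PB, 40 were on in both AMT+Ab and AMT+Hb. Of the 46 members on in AgBi, 33 were on in PB, as were 16 of the 38 not on in AgBi. Spearman's rho over the 84 members was 0.80 for PB replicate 1 with either AgBi library and 0.74 with Callus+AM replicate 2, 0.40 to 0.59 with the AMT+Ab and AMT+Hb libraries, and 0.20 with Ag replicate 1 and 0.04 with Callus+AM replicate 1. For PB replicate 2 it was 0.56 and 0.49 with the AgBi libraries, 0.41 with Callus+AM replicate 2, 0.23 to 0.38 with the AMT+Ab and AMT+Hb libraries and 0.30 with Ag replicate 1. LOC_Os05g45180 on chromosome 5, named after its values were seen, had an FPKM of 2.35 and 1.16 in PB and 1.52 and 1.21 in AgBi. It was at 13.5 and 11.9 in AMT+Ab, 21.4 and 12.5 in AMT+Hb and 5.2 and 4.6 in Callus+AM. In Ag it was at 14.4 in replicate 1 and 0.0522 in replicate 2, and in AgTi at 0.124 and 2.19. LOC_Os09g13650 on chromosome 9, also named afterwards, was between 10.04 and 52.6 in 12 of the 14 libraries. It stood at 0.0297 in Ag replicate 2 and 0.0606 in AgTi replicate 1, and at 0 in all Callus and Seedling libraries.

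Whether the treatments differed in these genes was addressed by 6 comparisons among the 6 groups. The rule names no direction between the 6, but it used the values of the same 12 libraries, so the tests are not independent of the choice of genes. A member had to be on in 2 groups, which bears on any call in which such a group is the higher. Both AMT+Ab and AMT+Hb were on for 68 members, and AgBi did not count as on for 38. The choice itself thus leans towards higher levels in AMT+Ab and AMT+Hb than in AgBi. The calls are therefore given as descriptions of these libraries, beside the share over all genes. Counts were tested with edgeR's quasi-likelihood test over 26374 genes, with Benjamini-Hochberg adjustment over all of them and calls at an adjusted p below 0.05. Of the 84 members, 83 passed the filter on low counts, through the groups in which they are high; LOC_Os09g19780 did not. Several comparisons share groups and so are not independent of each other.

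By edgeR, at most 4 members passed the test in any of the 6 comparisons, and the number and balance of calls depended on the tool. In AgBi over Ag, 1 member was higher and 3 were lower (4.82% of 83), where 25.3% of all genes were called, 12.4% higher and 12.9% lower. DESeq2 called 5 higher and 2 lower there (30.8% of all genes), and limma 3 higher and 4 lower (29%). In AgBi over AgTi, 2 were higher and 1 was lower (3.61%), where 19.6% of all genes were called, 10% higher and 9.54% lower. For that comparison DESeq2 called 11 higher and 1 lower (26.5% of all genes), and limma 2 higher and 3 lower (22.5%). In AMT+Ab and AMT+Hb together over AgBi, 2 were higher and 0 lower (2.41%), where 25.1% of all genes were called, 11.4% higher and 13.7% lower. DESeq2 called 11 members here and limma 13, all higher (30.1% of all genes by either tool). In AMT+Ab over AMT+Hb, edgeR called 0 members, where 6.42% of all genes were called, 3.16% higher and 3.26% lower. In that comparison 4 members (4.82%) had an unadjusted p below 0.05, against 21.3% of all genes. DESeq2 called 1 member and 11.2% of all genes there, and limma on FPKM called 2 members and 8.66% of all genes. In AgTi over Ag and in Ag over Callus+AM, edgeR called 0 members and 0% of all genes. At an unadjusted p below 0.05, AgTi over Ag held 12 members (14.5%, against 6.03% of all genes) and Ag over Callus+AM held 9 (10.8%, against 12.9% of all genes). DESeq2 called 0 members in AgTi over Ag (0.216% of all genes) and 1 in Ag over Callus+AM (1.01% of all genes). Limma called 0 members and 0% of all genes in both.

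The errors of the members were wide. The median standard error of a member's log2 fold change was 1.30 to 1.59 over the 6 comparisons, against 0.38 to 0.44 for all genes tested. Of the 83 members, 68 differed by over 2-fold in either direction in AgTi over Ag (14.7% of all genes), 58 in AgBi over Ag (40.5%) and 62 in AgBi over AgTi (37.9%). The number was 46 in Ag over Callus+AM (18.5% of all genes) and 57 in AMT+Ab and AMT+Hb over AgBi (33.8%). In AMT+Ab over AMT+Hb it was 19, against 25.4% of all genes. The median log2 fold change of the members was -0.24 in AgBi over Ag, beside -0.01 for all genes. It was 1.73 in AgBi over AgTi (all genes 0.05), 1.34 in AMT+Ab and AMT+Hb over AgBi (0.03), -0.19 in AMT+Ab over AMT+Hb (0), -1.77 in AgTi over Ag (-0.03) and -0.94 in Ag over Callus+AM (-0.07). Members below 0 numbered 75 of 83 in AgTi over Ag. These medians are descriptions. The 4 comparisons that include Ag, AgTi or Callus+AM hold at least 1 of the 3 low libraries each, and the other 2 hold none.

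**Figure D5:**
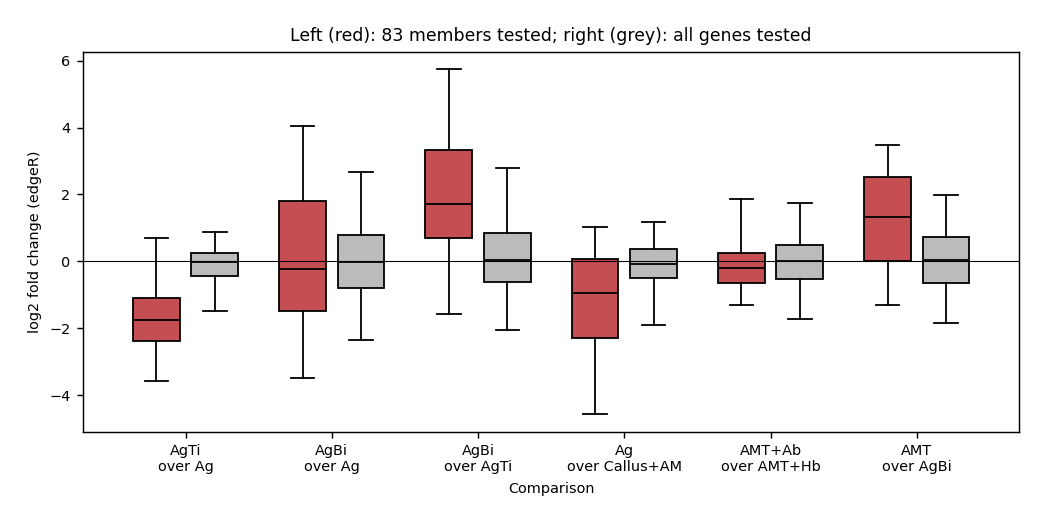
Log2 fold changes of the 83 members tested (red, left) and of all 26374 genes tested (grey, right) in 6 comparisons; boxes span the quartiles with the median, whiskers the 5th to 95th percentile. Member medians range from -1.77 in AgTi over Ag to 1.73 in AgBi over AgTi, and those of all genes lie near 0.

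The calls depended on single libraries, and the share of all genes called moved as well. Without Ag replicate 2, AgBi over Ag gave 9 members, all lower in AgBi, where 17.8% of all genes were called. It gave 1 without Ag replicate 1 (10.2% of all genes called), AgBi replicate 1 (18.1%) or AgBi replicate 2 (12.5%). With the 3 low libraries left out together it gave 14, all lower in AgBi, where 19.5% of all genes were called. AgBi over AgTi gave 0 without AgTi replicate 1 (1.93% of all genes called) or AgBi replicate 2 (9.97%), and 1 without AgTi replicate 2 (7.57%) or AgBi replicate 1 (12.1%). It gave 5 with the 3 low libraries left out together, where 6.14% of all genes were called. AMT+Ab and AMT+Hb over AgBi gave 0 without AgBi replicate 1 (13.7% of all genes called), AgBi replicate 2 (13.3%) or AMT+Ab replicate 2 (12.7%). It gave 1 without AMT+Ab replicate 1 (20% of all genes called) or AMT+Hb replicate 2 (19.3%), and 2, both lower, without AMT+Hb replicate 1 (13.5%). Ag over Callus+AM gave 2, both lower in Ag, without Callus+AM replicate 1, where 3.02% of all genes were called.

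By the rule for named genes, LOC_Os07g04190 and LOC_Os06g10670 qualified. LOC_Os07g04190 on chromosome 7 was at 2.59 and 1.69 FPKM in AgBi, against 0.195 and 0.231 in AgTi. The libraries did not overlap, and the gene was higher in AgBi (log2 fold change 3.29, SE 0.98, edgeR adjusted p = 0.035). This call was lost when any 1 of the 4 libraries was left out (adjusted p between 0.0653 and 0.219 by edgeR), with no filter on low counts (0.0918 by edgeR) and with limma (adjusted p 0.0874). In PB it stood at 7.60 and 5.76 FPKM, its highest levels of all groups.

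LOC_Os06g10670 on chromosome 6 was at 2.41 and 5.95 FPKM in AMT+Ab and 5.11 and 2.99 in AMT+Hb, against 0.296 and 0.613 in AgBi. All 4 AMT libraries exceeded both AgBi libraries, and the gene was higher there (log2 fold change 3.23, SE 0.90, edgeR adjusted p = 0.0213). It was lost without AgBi replicate 1, AgBi replicate 2, AMT+Ab replicate 2 or AMT+Hb replicate 1 (adjusted p between 0.0563 and 0.147 by edgeR).

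The other called members had low mean counts and are named after their values were seen. LOC_Os03g38600 had 0 counts in both AgBi libraries. It and LOC_Os06g03650 are members only through Ag and AgTi, so the choice of genes bears directly on their calls. Against 3 counts over the group it was at least 19.7-fold lower in AgBi than in Ag (edgeR adjusted p = 0.0164) and at least 39.7-fold lower than in AgTi (edgeR adjusted p = 0.0124). Both calls were lost when either AgBi library was left out, and the call against AgTi also without AgTi replicate 1 (adjusted p between 0.0553 and 0.0862 by edgeR). LOC_Os06g03650 also had 0 counts in AgBi and was at least 7.47-fold lower than in Ag (edgeR adjusted p = 0.0425). Leaving out any 1 of the Ag or AgBi libraries ended the call (adjusted p between 0.101 and 0.163 by edgeR), as did DESeq2 (adjusted p 0.382) and leaving out the 3 low libraries (0.128 by edgeR). The bounds cover counting error only.

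LOC_Os08g23870 on chromosome 8 was at 10.9 and 3.97 FPKM in AgBi, against 0.514 and 0.446 in Ag. It was higher in AgBi (log2 fold change 3.91, SE 1.04, edgeR adjusted p = 0.0177). Leaving out Ag replicate 1, Ag replicate 2 or AgBi replicate 1 ended the call (adjusted p between 0.09 and 0.0993 by edgeR), as did leaving out the 3 low libraries (0.0672 by edgeR). In AgTi it stood at 1.74 and 3.87 FPKM.

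LOC_Os01g41834 on chromosome 1 was at 0.183 and 0.0696 FPKM in AgBi, against 3.55 and 0.285 in Ag. Its lower level in AgBi passed the test (log2 fold change -3.93, SE 1.33, edgeR adjusted p = 0.048). Without Ag replicate 1 the log2 fold change was -1.21 (edgeR adjusted p = 0.576), and the call was also lost without either AgBi library (adjusted p 0.117 and 0.23 by edgeR), with no filter (0.0683 by edgeR) and with limma (adjusted p 0.103). LOC_Os04g31460 on chromosome 4 was at 6.37 and 2.81 FPKM in AgBi, against 0 and 0.124 in AgTi (log2 fold change 6.002, SE 1.74, edgeR adjusted p = 0.0343). It is a member only through AgBi and AMT+Ab, so the choice of genes bears directly on this call too. Leaving out any 1 of these 4 libraries ended the call (adjusted p between 0.0613 and 0.23 by edgeR), as did using no filter (0.0868 by edgeR), and the log2 fold change was 9.51 without AgTi replicate 2, which left a library at 0. LOC_Os03g07540 on chromosome 3 was at 6.26 and 5.35 FPKM in AMT+Ab and 3.50 and 1.96 in AMT+Hb, against 0.462 and 0.439 in AgBi (log2 fold change 3.08, SE 1.01, edgeR adjusted p = 0.0464). This gene is a member only through Callus+AM, AMT+Ab and AMT+Hb, so the choice of genes bears directly on its call as well. The AgBi values are 1 count each, and the call was lost when any 1 of the 6 libraries was left out (adjusted p between 0.0733 and 0.207 by edgeR), with no filter (0.0889 by edgeR) and with DESeq2 (adjusted p 0.0958).

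Values near the thresholds were as follows. Just inside the silence threshold, next to LOC_Os04g39150, was LOC_Os12g30000 with a Seedling mean of 0.0972. Just outside were LOC_Os09g38239 and LOC_Os01g51840, with Callus means of 0.1001 and 0.104 and an FPKM of 0.358 and 0.191 in Ag replicate 2. Just inside the threshold for being on, by the lower library of the second-best group, were LOC_Os10g28680 at 1.002 and LOC_Os03g38600 at 1.01. Just outside were LOC_Os12g02030 at 0.993 and LOC_Os02g29240 at 0.977. Neighbours across a threshold thus differed by little in FPKM.

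Members lay on all 12 chromosomes. Chromosome 4 held 14 (16.7% of members, against 9.53% of all listed genes) and chromosome 3 held 11 (13.1%, against 9.98%), while chromosomes 7 and 8 held 2 each. Few members were neighbours by locus number. Within 50 locus numbers of each other lay LOC_Os04g32820, LOC_Os04g32830 and LOC_Os04g32860 on chromosome 4, which are 3 of 5 listed genes in that span, and 3 further pairs. Ag replicate 1 held 20.1, 1.76 and 4.19 FPKM of these 3 neighbours, against 0.0722, 0 and 0.0356 in Ag replicate 2. They were highest in AMT+Ab replicate 2 or AMT+Hb replicate 1, at 35.4, 4.31 and 9.54. Whether reads are shared between near-identical or overlapping neighbours could not be told from these tables.

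The ratio of counts to FPKM gives a relative length as the FPKM used it, which need not equal the length of the gene or transcript. Among the 80 members with at least 20 counts in some library the median was 0.76 of the median gene, with quartiles of 0.493 and 0.983. Over 26321 genes treated the same way the median was 0.957, with quartiles of 0.602 and 1.39. A threshold in FPKM is met by short genes on fewer reads, and the part of the rule in this difference was not tested.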

How the data were processed

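The members, lists and comparisons were chosen with earlier results of these data known. The authors deposited a table of FPKM values and a table of estimated counts per gene for 18 leaf RNA-seq libraries. Per the submitters' processing notes the tools were TopHat, Cuffnorm and Cuffdiff, with no version. Build, annotation and strand setting: not given in the sources used here. The 18 bisulfite samples are not analysed here.

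The rule for the members was applied to the deposited FPKM. For tests, the deposited estimated counts (0.707% not whole) were rounded, filtered with filterByExpr and scaled by TMM. A model with 9 group coefficients was fitted over the 18 libraries in edgeR 4.0.16 (R 4.3.3), with robust quasi-likelihood estimation and 9 residual degrees of freedom. Standard errors were derived from the F statistics. With 26609812 to 52643973 counts a library, 3 counts were 0.057 to 0.113 CPM. Folds against a group at 0 were computed against 3 counts over the group. The code was tested on simulated data. Alternatives used relative log expression factors, no filter, DESeq2 1.42.0, limma 3.58.1 on log2(FPKM + 1), a replicate block, each library left out and other thresholds.

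The rule for named genes (genes outside it are said to be named after their values were seen) took the 5 members with the highest mean, the 5 highest in PB and those nearest each threshold. It also took the longest run of neighbours and, per comparison, up to 2 called members in each direction with a mean log2 CPM of at least 1 and no overlap between libraries. Lists of leaf, meristem, flower, seed, root and DNA methylation genes held symbols and could not be matched to the identifiers, so none was tested.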

Additional observations from a re-analysis of the deposited data

Results flagged for a closer look

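PB, which the choice of genes did not use, had 49 of the 84 members (58.3%) on in both libraries, beside 35.3% of all listed genes. Members had to be on in 2 or more other leaf groups, so the choice itself favours a share above that of all genes. With each of the 6 groups left out of its own choice, the share on ran from 0% in Ag to 87.5% in AMT+Ab, with PB in between. Those choices needed 2 of the other 5 groups, while that for PB needed 2 of 6. In Callus and Seedling the choice of genes itself keeps every member below an FPKM of 1, so no comparison is drawn with them. PB was singled out only because the comparisons do not use its libraries. No group has 4 or more libraries, so single libraries could not be tested as outliers.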

How the results depend on the processing

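The size of the set followed its thresholds. It was 47 genes with silence below 0.05 and 300, the cap, below 0.5; 195, 41 and 19 with genes on at 0.5, 2 and 5; 189 and 49 with 1 or 3 groups required. It was 13 with 0 counts in Callus and Seedling and 300, again the cap, with silence in Seedling alone. Silence in Callus alone gave 121 genes, and leaving out the 3 low libraries gave 171. Members on in both PB libraries were then 29, 209, 90, 29, 15, 91, 36, 5, 184, 67 and 93. Leaving out single libraries gave 83 to 139 genes, with 47 to 84 on in PB. With a group left out of its own choice, 0 genes were on in Ag, 3 in AgTi and 49 in AMT+Ab, where fewer genes were chosen. Without the 3 low libraries, 71, 70 and 34 members were on in Callus+AM, Ag and AgTi.

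Members called by DESeq2 numbered 7 in AgBi over Ag (5 higher, 2 lower; 30.8% of all genes), 12 in AgBi over AgTi (11 higher, 1 lower; 26.5%), 11 in AMT+Ab and AMT+Hb over AgBi (all higher; 30.1%), 1 in AMT+Ab over AMT+Hb and 1 in Ag over Callus+AM. Limma called 7 (3 higher, 4 lower; 29% of all genes), 5 (2 higher, 3 lower; 22.5%), 13 (all higher; 30.1%), 2 and 0 in the same order. The balance of higher and lower members in AgBi over Ag and AgBi over AgTi thus depended on the tool. Without the filter 1 member was called in AMT+Ab and AMT+Hb over AgBi (12.5% of all genes), and the 2 called in AgBi over AgTi were both lower (9.05%). Without the 3 low libraries 14 were called in AgBi over Ag and 5 in AgBi over AgTi. With single libraries left out, calls ran from 1 to 9, 0 to 1, 0 to 2, 0 to 0 and 0 to 2 in that order and stayed at 0 in AgTi over Ag. The share of all genes called also moved with the libraries left out, in every comparison but AgTi over Ag. Shares for the fits with called members are given with the calls above. The counts of members alone thus do not show a shift particular to the members. The cause of these shifts was not tested. The median log2 fold change of PB over Seedling was 6.34 to 7.63 with single libraries left out. The members called by edgeR kept their direction under all alternatives run.

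The labels do not say whether replicate numbers pair the libraries. Correlations of replicate deviations between the 6 groups ran from -0.466 to 0.259, with 3 of 15 pairs above 0.1. Over all 9 groups 9 of 36 pairs were above 0.1. These values do not decide whether the libraries were paired. The replicate block gave 2 called members in AgBi over Ag in place of 4 (22.6% of all genes), 2 in AgBi over AgTi (16.6%), 2 in AMT+Ab and AMT+Hb over AgBi (22.3%), 0 in AMT+Ab over AMT+Hb (4.87%) and 0 in the rest (0%). It ended the calls of LOC_Os06g03650 (edgeR adjusted p 0.0643) and LOC_Os01g41834 (0.0686) in AgBi over Ag and of LOC_Os04g31460 (0.0514) in AgBi over AgTi. A group reduced to 1 library takes its spread from the others in these fits.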
